A study of Mus musculus with 5 samples.

Results

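The genes described here build the machinery that stores neurotransmitter in synaptic vesicles and releases it by exocytosis. They are 36 genes given by symbol: SNARE proteins and their partners, synaptotagmins, Rab3 GTPases, active zone proteins, vesicle membrane proteins, and the presynaptic proteins dynamin 1 and beta-synuclein. Of these, 35 had a probe set whose only gene symbol was theirs, among 19937 genes measured in this way. Vamp2 had no probe set of its own and is not reported. Where a gene had several probe sets, the one with the highest mean over the arrays stands for it, and only Unc13a had more than 1.

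RNA was recovered by anti-FLAG precipitation from NSC-34 cells, a mouse motor neuron-like line made by fusing neuroblastoma cells with spinal cord motor neurons, and was measured on 5 single-colour Affymetrix arrays. The 3 FLAG-SMN IP arrays came from NSC34 cells with a 3XFLAG-flSMN construct, a tagged full-length survival of motor neuron protein (SMN), and the 2 control IP arrays from NSC34 cells without a FLAG construct. Both kinds of cell were differentiated in 1% serum (3 days in one protocol, 48 hours before doxycycline in another), then spent 3 days in doxycycline at 3 µg/ml and took a single ultraviolet dose of 400 mJ/cm2 before lysis. The comparison asks which RNAs are present in particles that contain SMN, and the control IP measures what the beads hold without a tagged protein. RNA of the lysates was not analysed here, so a lower value in the precipitate and a lower level in the cells cannot be told apart, nor can fewer cells that carry a transcript and less of it per cell. The labels do not say whether the tagged cells are 1 clone or whether replicates were separate cultures; every p-value thus reflects the spread between the samples at hand, and that spread may be technical.

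Neurotransmitter release runs through a short chain of proteins. Vesicles carry synaptophysin, SV2 and synapsin, are tethered by Rab3 and the large active zone scaffolds, are primed by Munc13, and fuse when the vesicle SNARE synaptobrevin zips together with SNAP-25 and syntaxin on the plasma membrane. Synaptotagmins bind calcium and couple its entry to fusion, while NSF and its adaptors take the SNARE complexes apart for another round.

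The arrays stood as follows. FLAG-SMN IP replicates 2 and 3 correlated at r = 0.989 across probe sets, whereas replicate 1 reached 0.964 and 0.968 with them, and the control IP arrays correlated at 0.98. With control IP replicates 1 and 2, FLAG-SMN IP replicate 1 correlated at 0.962 and 0.954, replicate 2 at 0.977 and 0.968, and replicate 3 at 0.973 and 0.977. FLAG-SMN IP replicate 1 therefore stood apart from both groups, and results that rest on it are given with and without it. Of 9 fixed motor neuron and cholinergic marker genes, 5 lay above the median of the presumed control probe sets on every array; Mnx1 and Slc5a7 lay below it on every array, and Chat was at 4.53, 4.69 and 4.4 against 4.61 and 4.28. In limma 0 of those 9 markers differed at an unadjusted p under 0.05, the criterion for the other marker lists too. By that criterion 7.21% of all genes were lower and 3.25% higher. The list's mean log2 value was 5.53 to 5.69 in FLAG-SMN IP and 5.47 to 5.63 in control IP. Glial markers had means of 4.51 to 4.78 and 4.38 to 4.75, with 0 of 7 differing, and fibroblast and endothelial markers 4.70 to 4.89 and 4.65 to 4.84, with 1 of 7 lower and 1 higher. Among 7 noradrenergic neuroblastoma markers 2 were lower and 2 higher; the lower were the catecholamine enzyme genes Th (log2 difference -1.94) and Dbh (-2.23), and the higher were Ddc (0.76), another enzyme of that pathway, and the transcription factor gene Gata3 (0.50). The list's mean log2 value was 6.58 to 6.70 against 6.94 to 7.13, and the part of these genes in the results was not tested.

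Across the synaptic genes, values were mostly lower in FLAG-SMN IP than in control IP. The median log2 difference (FLAG-SMN IP minus control IP) was -0.45 over the 35 genes, beside 0.00188 over all genes, and 28 of the 35 differences were negative. In limma, 0 of the 35 passed an adjusted p of 0.05 over all 28187 probe sets, a threshold that 0.0301% of all genes passed. At an unadjusted p under 0.05, 12 of 35 were lower (34.3%), beside 7.21% of all genes, and 1 was higher (2.86%), beside 3.25% of all genes. All FLAG-SMN IP arrays lay below both control IP arrays at 19 of 35 (54.3%), beside 14.8% of all genes, and above both at 2, Syn2 and Doc2b, beside 11.0% of all genes. The genes were chosen with earlier results of these data known, so these counts describe the list and are not independent evidence of its direction. Leaving out control IP replicate 2 reduced the 12 to 6, beside 3.92% of all genes, of which 5 were among the original 12.

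**Figure D1:**
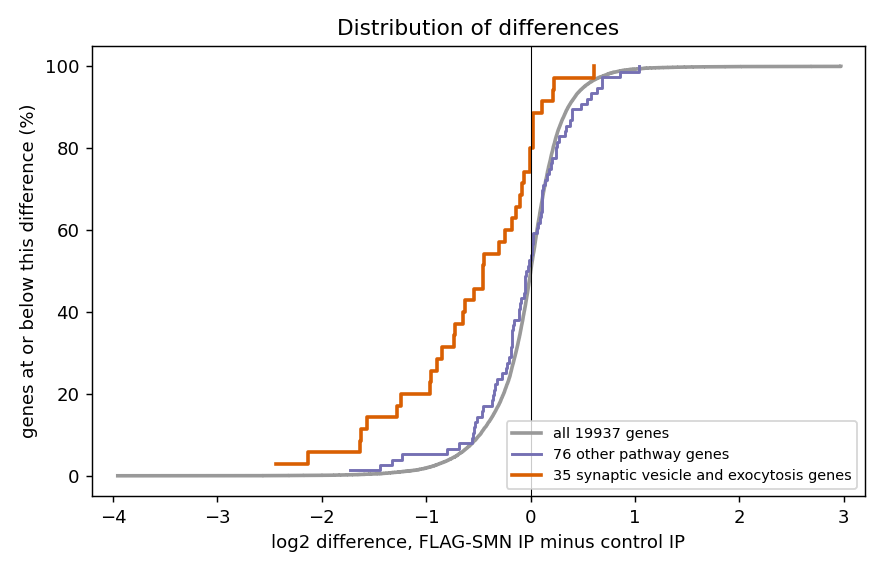
Cumulative percentage of genes (vertical axis) at or below each log2 difference between FLAG-SMN IP and control IP (horizontal axis) for all 19937 genes (grey), 76 other genes of the release machinery (purple) and the 35 synaptic vesicle and exocytosis genes (orange). The orange curve lies to the left, with its median at -0.45 against 0.00188 for all genes, while the purple curve has its median at -0.03.

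The SNARE genes divided. Snap25 encodes the plasma membrane SNARE that supplies a pair of helices to the fusion complex. Its log2 values were 7.25, 6.05 and 6.32 in FLAG-SMN IP and 8.55 and 8.80 in control IP. The groups did not overlap, and FLAG-SMN IP replicate 1 was the highest of its group. The means were 6.54 ± 0.627 (SD, n = 3) and 8.67 ± 0.179 (SD, n = 2), a log2 difference of -2.14 or 4.39-fold lower (SE 0.36; limma adjusted p = 0.131).

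Stx1a, the syntaxin partner of SNAP-25 on the plasma membrane, was at 7.74, 6.81 and 7.08 in FLAG-SMN IP and at 7.13 and 7.31 in control IP. Its groups overlapped, and the difference was -0.01 with a 95% confidence interval from -0.71 to 0.69. Vamp1, a synaptobrevin of the vesicle membrane, was at 9.0, 7.88 and 7.95 against 8.49 and 8.06. FLAG-SMN IP replicate 1 lay above both control arrays for Stx1a and Vamp1, and the other FLAG-SMN IP arrays lay below both. Vamp1 had a confidence interval from -0.88 to 0.88. The median over the 3 SNARE genes, -0.00929, was therefore that of Stx1a, and the large difference was that of Snap25. This median turned positive under 4 of the alternatives tried. Among them the replicate block and leaving out FLAG-SMN IP replicate 3 give the same estimate, so these are not separate checks.

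Among SNARE partners and priming factors, 2 of 6 were lower at an unadjusted p under 0.05 (7.21% of all genes) and 0 higher (3.25% of all genes), and the median difference was -0.63. Nsf, the ATPase that disassembles spent SNARE complexes, was at 7.0, 7.25 and 7.27 against 7.60 and 8.19. Its difference was -0.73 (SE 0.23; limma adjusted p = 0.332). Cadps encodes CAPS1, which primes dense-core vesicles. It was at 4.69, 4.25 and 4.83 against 5.27 and 5.83, with replicate 2 below the presumed control median of that array, so its difference of -0.96 (SE 0.26; limma adjusted p = 0.263) has an uncertain size. For both genes the groups did not overlap. The complexin gene Cplx1, whose protein clamps and promotes SNARE fusion, had a difference of -0.85 and Cplx2 one of -0.14. These were -1.22 and -0.19 without FLAG-SMN IP replicate 1. Napb, the neuronal adaptor that brings NSF to the SNAREs, had -0.54 with FLAG-SMN IP values of 5.69, 3.80 and 4.83, that of replicate 2 below the presumed control median of its array. Without FLAG-SMN IP replicate 1 Napb had -1.0, and without replicate 2 it had -0.05. Cadps2 lay below the presumed control medians on every array, so no fold is given.

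All 6 synaptotagmin differences were negative, with a median of -0.77; 4 were lower at an unadjusted p under 0.05, beside 7.21% of all genes, and 5 had FLAG-SMN IP below both controls, beside 14.8% of all genes. Syt9, a fast calcium sensor of regulated secretion, had the largest difference of the 35 genes. The FLAG-SMN IP arrays read 7.39, 4.98 and 5.13 and the control IP arrays 8.02 and 8.53. Replicate 1 lay below both control arrays but nearer to them than replicates 2 and 3, which lay far below. The means were 5.83 ± 1.35 (SD, n = 3) and 8.28 ± 0.361 (SD, n = 2), a difference of -2.44 (SE 0.70; 5.43-fold lower; limma adjusted p = 0.283).

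Syt4 encodes a synaptotagmin of secretory granules whose calcium binding is weak. It was at 6.24, 5.86 and 6.15 against 7.56 and 7.88, so all FLAG-SMN IP arrays, replicate 1 included, lay well below the controls. Its difference of -1.64 (SE 0.21; 3.11-fold lower) had the smallest p of the 35 genes (limma adjusted p = 0.0864).

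Syt1, the main calcium sensor for synchronous release, was at 9.51, 8.71 and 8.90 against 9.70 and 10.16. Its difference was -0.89 (SE 0.29; limma adjusted p = 0.335). Replicate 1 again came nearest to the controls. Syt7, a slow sensor with high calcium affinity, was at 6.94, 7.33 and 7.18 against 7.75 and 7.83, a difference of -0.64 (SE 0.19; limma adjusted p = 0.304). Here replicate 1 was the lowest array. Syt11, a synaptotagmin that does not bind calcium, was at 9.30, 9.66 and 9.49 against 10.14 and 9.73 (-0.45), without overlap. Syt5 was at 7.06, 7.52 and 7.31 against 7.63 and 7.09 (-0.06), with overlapping groups.

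The vesicle membrane and vesicle-coating genes held the next largest differences. In this group 4 of 8 were lower at an unadjusted p under 0.05 (7.21% of all genes) and 1 was higher (3.25% of all genes), with a median of -0.70. Syp encodes synaptophysin, the most widely used marker of synaptic vesicles. It was at 6.05, 5.59 and 5.38 against 7.52 and 6.96, which left a gap between the groups. Its means were 5.68 ± 0.344 (SD, n = 3) and 7.24 ± 0.399 (SD, n = 2), a difference of -1.56 (SE 0.28; 2.96-fold lower; limma adjusted p = 0.134).

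The 3 SV2 genes encode vesicle glycoproteins of the transporter fold. Sv2a was at 5.47, 5.51 and 5.54 against 6.41 and 6.50, and its difference of -0.95 (SE 0.17; 1.93-fold lower; limma adjusted p = 0.134) had the smallest standard error of the 12 lower genes. Sv2c was at 7.90, 5.94 and 6.55 against 8.31 and 8.52. Its difference was -1.62 (SE 0.52; limma adjusted p = 0.336), with replicate 1 below both control arrays and the other FLAG-SMN IP arrays well below replicate 1. Sv2b lay below the presumed control medians on every array, so no fold is given.

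The synapsins coat vesicles and hold them in the reserve pool, and their genes went opposite ways. Syn1 was at 6.0, 5.34 and 5.17 against 6.69 and 6.79, a difference of -1.24 (SE 0.27; 2.36-fold lower; limma adjusted p = 0.199). Syn2 was at 9.32, 9.32 and 9.33 against 8.56 and 8.87, a difference of 0.61 (SE 0.18; 1.52-fold higher; limma adjusted p = 0.304). Both genes kept the groups apart, Syn1 below and Syn2 above. The synaptogyrin genes Syngr1 and Syngr3, relatives of synaptophysin, each had a difference of 0.03, with intervals from -0.69 to 0.74 and from -0.41 to 0.46.

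**Figure D2:**
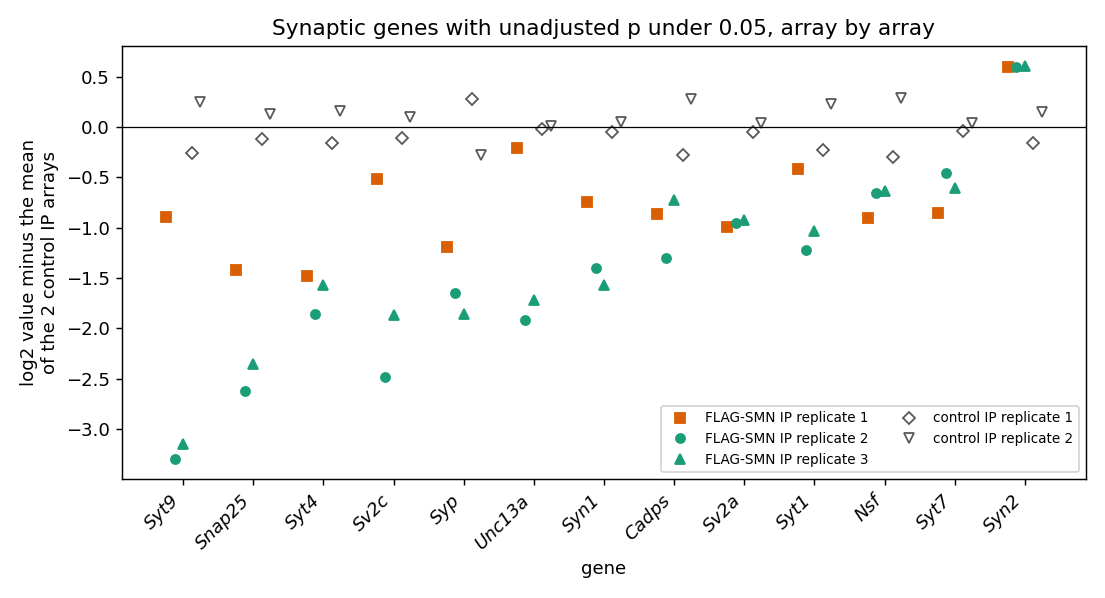
Log2 value of each array minus the mean of the 2 control IP arrays (vertical axis) for the 13 synaptic genes with an unadjusted p under 0.05 (horizontal axis), ordered by difference; each point is 1 array, orange squares for FLAG-SMN IP replicate 1, green for replicates 2 and 3, open grey for control IP. For Syt9, Sv2c and Unc13a the orange square lies below the controls but nearer to them than the green points. For Syt4 and Sv2a the 3 FLAG-SMN IP arrays lie together, and Syn2 is the gene above 0.

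Active zone genes had a median difference of -0.63, all 5 negative, and 1 of 5 was lower at an unadjusted p under 0.05, beside 7.21% of all genes. Unc13a encodes Munc13-1, which opens syntaxin and makes vesicles ready to fuse. It was at 7.81, 6.10 and 6.30 against 8.0 and 8.03, a difference of -1.28 (SE 0.49; 2.43-fold lower; limma adjusted p = 0.428). Replicate 1 lay just under the controls. Its other probe sets gave -1.16 and -0.20, so all 3 were negative and the dimmest was the smallest.

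Rims2, a scaffold that links Rab3, Munc13 and calcium channels, was at 7.56, 6.26 and 6.68 against 7.44 and 7.69 (-0.73). Its groups overlapped because replicate 1 lay between the controls, and its difference was -1.09 without that array. Bsn, the giant scaffold bassoon, was at 5.59, 5.15 and 4.80 against 5.98 and 5.64 (-0.63). Its interval ran from -1.27 to 0.01, and its groups were narrowly apart. Pclo, the scaffold piccolo, was at 4.81, 4.64 and 4.71 against 5.02 and 4.91 (-0.25), also without overlap. Rims1 was at 4.52, 4.51 and 4.56 against 4.84 and 4.38 (-0.08), close to the presumed control medians of 4.30 to 4.55.

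The Rab3 genes and their neighbours gave 0 of 5 genes at an unadjusted p under 0.05 in either direction, with a median of -0.10. Of all genes 7.21% were lower and 3.25% higher, so 0 of 5 is near those shares. Rab3a and Rab3b, small GTPases of the vesicle surface, had differences of -0.18 and -0.10. Rab3c was at 7.45, 5.25 and 5.09 against 6.50 and 6.28, so replicate 1 lay above both controls and the other FLAG-SMN IP arrays below both. The difference over all arrays was -0.46 (SE 0.68; limma adjusted p = 0.938). It was -1.22 without FLAG-SMN IP replicate 1, -0.12 without replicate 2 and -0.04 without replicate 3. The replicate block gave the same -0.04, because number 3 occurs only in FLAG-SMN IP and the block takes up that array. The Rab3 effector gene Rph3a (0.02) had overlapping groups. Doc2b, a calcium sensor of spontaneous release, lay above both controls in every FLAG-SMN IP array by a small step (0.22), with control values below the presumed control medians. Dnm1, the GTPase that cuts endocytic vesicles from the membrane, had -0.30. Sncb, beta-synuclein, had 0.23, with 8.84, 7.3 and 6.8 in FLAG-SMN IP against 7.51 and 7.33 in control IP. Replicate 1 lay above both controls and the other FLAG-SMN IP arrays lay below both. The Sncb difference was -0.37 without FLAG-SMN IP replicate 1.

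**Figure D3:**
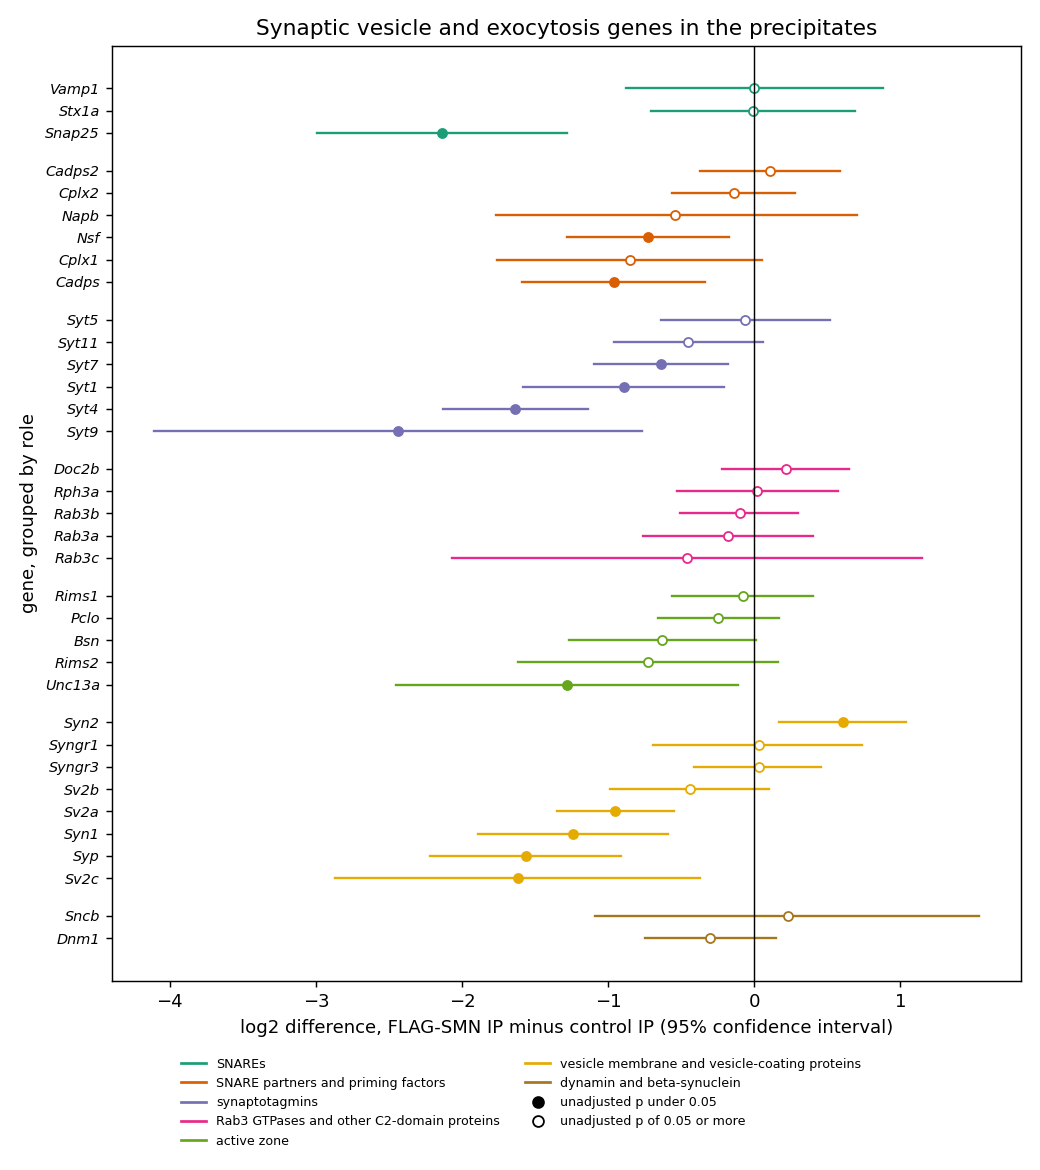
Log2 difference, FLAG-SMN IP minus control IP, with its 95% confidence interval from limma (horizontal axis) for each of the 35 synaptic genes, grouped by role (vertical axis); filled points mark an unadjusted p under 0.05. Snap25 at -2.14 and Syt9 at -2.44 lie farthest left, Stx1a and Vamp1 lie at 0, and Syn2 at 0.61 is the filled point on the right.

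FLAG-SMN IP replicate 1 was often the highest of its own group on these genes. It lay above replicates 2 and 3 at 26 of 35 (74.3%), against 41.5% of all genes, and exceeded their mean by at least 1 log2 unit at 10 of 35 (28.6%), against 2.57% of all genes. The median excess was 0.26, against 0.0268 over all genes. Syt9 (2.34), Rab3c (2.28), Sncb (1.79), Sv2c (1.65) and Unc13a (1.61) had the largest excess. Syt7 (-0.31), Nsf (-0.25) and Sv2a (-0.05) had none.

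Without that array the size of the difference was larger for 9 of the 12 lower genes and smaller for Nsf (-0.64), Syt7 (-0.54) and Sv2a (-0.93). For these genes the change is set by whether replicate 1 lay above or below the mean of replicates 2 and 3. Leaving out an array that lay far above also narrows the spread in FLAG-SMN IP, so the counts below are not separate evidence. In limma without replicate 1, 8 of 35 passed an adjusted p of 0.05, all lower (22.9%), beside 0.772% of all genes lower on the same criterion. Snap25 fell by 2.49 on the log2 scale (5.61-fold; limma adjusted p = 0.00741) and Syt9 fell by 3.22 (9.33-fold; limma adjusted p = 0.00521). Sv2c had -2.17 (adjusted p = 0.014), Unc13a -1.82 (0.0123), Syp -1.75 (0.0259), Syt4 -1.71 (0.0191), Syn1 -1.48 (0.0219) and Rab3c -1.22 (0.0423), as adjusted p in limma. Sv2a (-0.93, adjusted p = 0.0786) and Syt1 (-1.13, adjusted p = 0.0775) did not pass. At an unadjusted p under 0.05 there were 17 lower genes, beside 8.09% of all genes, and these included all 12 found with every array. When any of the other 4 arrays was left out instead (in the order FLAG-SMN IP 2, FLAG-SMN IP 3, control IP 1, control IP 2), 0 of 35 passed the adjusted threshold, while 10, 10, 10 and 6 were lower at an unadjusted p under 0.05, beside 5.53%, 5.71%, 7.2% and 3.92% of all genes.

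**Figure D4:**
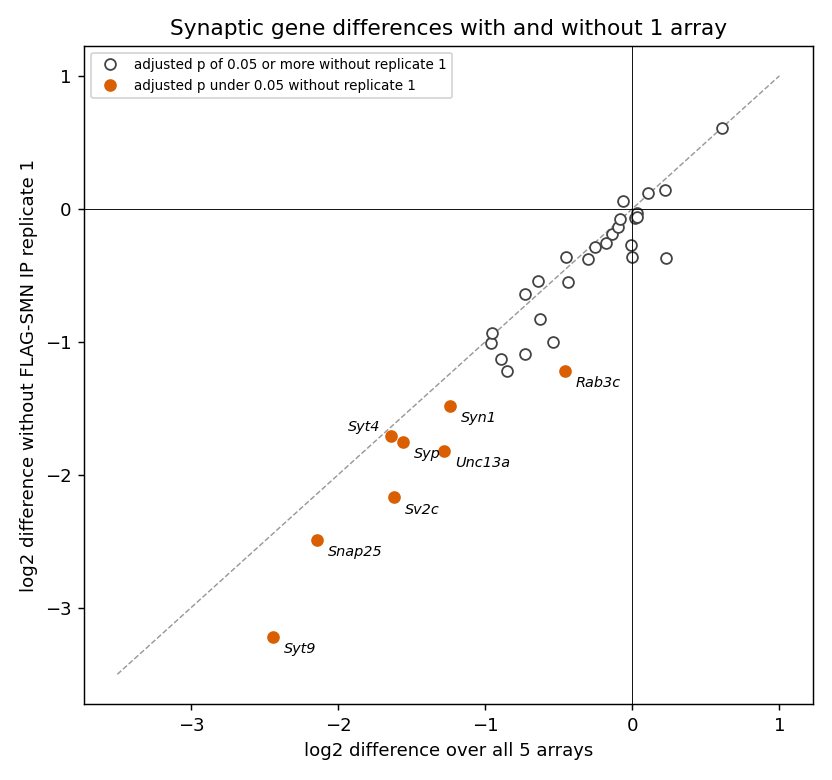
Log2 difference of each of the 35 synaptic genes over all 5 arrays (horizontal axis) against the difference without FLAG-SMN IP replicate 1 (vertical axis); the dashed line marks equal values and filled orange points mark an adjusted p under 0.05 without that array. All 8 orange points lie below the line, Syt9 lowest at -3.22, and Rab3c moves from -0.46 to -1.22.

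Other genes of the release machinery, a list of 80 of which 76 were measured, had a median difference of -0.03. Of these, 9 were lower and 4 higher at an unadjusted p under 0.05, beside 7.21% and 3.25% of all genes, and 0 passed the adjusted threshold in limma. The lower genes included Cask (-1.73), a scaffold kinase of the presynaptic membrane, Snap91 (-0.80), a clathrin adaptor that recovers vesicle membrane, Sh3gl3 (-0.56), an endophilin, and Napa (-0.54), the alpha-SNAP adaptor of NSF. The synaptotagmin genes Syt6 (-1.44) and Syt17 (-1.23), were lower, as was the third synapsin gene, Syn3 (-1.33). Apba1 (1.04), a Munc18-binding adaptor, Rab3ip (0.69) and Sytl3 (0.58) were higher. Sytl3 values of 2.93 to 3.71 lay below the presumed control medians. Over the 16 synaptotagmin genes of both lists, 13 differences were negative, beside 9892 of 19937 for all genes. At an unadjusted p under 0.05, 6 of the 16 were lower and 0 higher, beside 7.21% and 3.25% of all genes. The 16 include the 6 synaptotagmins above, all negative and 4 of them lower, so these counts partly repeat theirs. Some of the added synaptotagmin genes lay below the presumed control medians on every array, so their signs are not read. Without FLAG-SMN IP replicate 1, Cask (-1.49, limma adjusted p = 0.0207) and Syt6 (-1.26, limma adjusted p = 0.0318) passed the adjusted threshold.

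RefSeq promoter windows, 250 bases before to 50 after a gene's start on GRCm38.p6, were found for 28 of the 36 genes, with 36 windows in all. Snap25, Syt4, Syt5, Syt7, Vamp2, Rims2, Syngr3 and Doc2b had none. The windows were rich in CG dinucleotides, with a median of 17 against 7 over all 32851 windows of the table. Motifs were searched on both strands. GGGCGG, the GC box bound by Sp1 factors, was in 22 of 36 windows (61.1%), against 35.7% of all windows. TATAAA, the TATA box, was in 3 of 36 (8.33%), against 13.6%. TTCAGCACC, the left arm of the RE1 element bound by REST, a repressor of neuronal genes outside neurons, was in 2 of 36 (5.56%), those of Syn1 and Unc13a, against 0.371% of all windows. The right arm of the RE1 element, as a run of fixed letters, was in that of Unc13a, against 0.137% of all windows. TGACGTCA, the cyclic AMP response element, was in that of Syn1, against 1.79%. A match describes the letters and does not show binding.

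The windows of Syn1 and Unc13a are shown because they hold the RE1 arms and both genes are among the 12 with lower values; that of Syp, the vesicle marker with neither arm, is shown beside them. Capitals mark every match to the motifs above, and each sequence runs 5′ to 3′ on the gene's strand. In Syn1 (chrX:20920869-20921168, minus strand) the left RE1 arm starts at base 19 and the cyclic AMP element at base 92, counted from the window's 5′ end. In Unc13a (chr8:71671708-71672007, minus strand) the right arm starts at base 255 and the left arm at base 273, both on the opposite strand and 8 bases apart, after a pair of GC boxes. In Syp (chrX:7638330-7638629, plus strand) the capitals are GC boxes.
Syn1: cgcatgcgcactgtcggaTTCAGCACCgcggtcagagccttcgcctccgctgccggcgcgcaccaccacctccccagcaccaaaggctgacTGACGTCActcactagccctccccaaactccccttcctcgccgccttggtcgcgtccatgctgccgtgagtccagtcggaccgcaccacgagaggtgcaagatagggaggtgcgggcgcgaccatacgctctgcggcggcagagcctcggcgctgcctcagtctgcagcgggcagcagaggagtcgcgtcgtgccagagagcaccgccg
Unc13a: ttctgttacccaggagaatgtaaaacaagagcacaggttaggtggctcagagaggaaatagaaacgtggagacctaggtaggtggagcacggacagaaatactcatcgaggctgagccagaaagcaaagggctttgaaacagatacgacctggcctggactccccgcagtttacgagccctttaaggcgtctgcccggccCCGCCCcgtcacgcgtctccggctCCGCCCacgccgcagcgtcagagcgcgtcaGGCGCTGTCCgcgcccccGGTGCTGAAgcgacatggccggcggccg
Syp: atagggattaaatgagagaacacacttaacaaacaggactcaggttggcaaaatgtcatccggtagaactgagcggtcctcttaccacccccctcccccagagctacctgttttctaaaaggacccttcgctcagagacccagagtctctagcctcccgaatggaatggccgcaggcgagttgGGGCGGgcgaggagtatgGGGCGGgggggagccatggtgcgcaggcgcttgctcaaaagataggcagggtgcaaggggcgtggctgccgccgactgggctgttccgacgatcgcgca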

How the data were processed

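The authors' deposited values are log2 probe set signals of 5 arrays. RMA is named per the submitters' processing notes; which version and which settings were used is not given in the sources used here. RMA forces the arrays into a shared distribution, which hides any general difference in recovered RNA. The values run from 1.28 to 14.15, from which the log2 scale was inferred. Of 34760 probe sets, 6573 had IDs below the lowest annotated one; these presumed controls were set aside. Of the 28187 kept, 21640 carried 1 gene symbol.

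The groups were compared by limma 3.58.1 (R 4.3.3; lmFit, eBayes) without a block, 2-sided, over all 28187, with Benjamini-Hochberg adjustment, 3 residual and 3.8 prior degrees of freedom; the fit was tested on simulated data. Shares of all genes use the brightest probe set per gene. All measured genes are named, with array values for SNAREs, synaptotagmins, active zone genes and those with an unadjusted p under 0.05; up to 10 other pathway genes are named by smallest p. The genes, lists and tests were chosen with earlier results of these data known. Alternatives were another scaling, other filters, variance moderation, a replicate block, gene means and leaving out each array. The block gives the same differences as leaving out FLAG-SMN IP replicate 3, whose number occurs in that group only. The number of arrays limits the precision. Figures used matplotlib 3.10.9 in Python 3.11.15.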

Additional observations from a re-analysis of the deposited data

How the results depend on the processing

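The count of synaptic genes past the adjusted threshold was 0 over all 5 arrays and under every alternative tried except leaving out FLAG-SMN IP replicate 1, which gave 8; over left-out arrays it ranged from 0 to 8. Lower genes at an unadjusted p under 0.05 numbered 12, from 6 to 17 over left-out arrays and 11 or 12 otherwise. The counts of 11 were 11 of 27 among brighter probe sets (9.29% of all genes there) and 11 of 35 with the replicate block (6.28%). The 12 stayed negative wherever tested, but their groups did not overlap, so leaving out an array could not change the sign. The higher gene, Syn2, was lost with the replicate block (0), and over left-out arrays the count was 0 to 1. Genes with FLAG-SMN IP above both controls numbered 2, or 1 of 27 among brighter probe sets (13.1% of all genes there), and 2 to 6 over left-out arrays; the 6 of 35 (17.1%) came without control IP replicate 1, where the share of all genes was 31.1%. The median over the synaptic genes was -0.63 among brighter probe sets and -0.54 to -0.21 over left-out arrays; that of synaptotagmins was -0.90 to -0.66. The SNARE median was 0.0302 with cyclic loess scaling, 0.0555 with the replicate block and -0.36 to 0.19 over left-out arrays. Other pathway genes lower at an unadjusted p under 0.05 numbered 5 of 47 among brighter probe sets, beside 9.29% of all genes there. With the replicate block they numbered 5 of 76, beside 6.28%. Over left-out arrays they numbered 4 to 12 of 76, beside 3.92% to 8.09% of all genes. Higher ones numbered 2 of 47 among brighter probe sets, beside 3.88%, and 1 to 5 of 76 over left-out arrays, beside 1.95% to 4.4%. The cause of these shifts was not tested.

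Of the 35 genes, 10 changed sign somewhere, with differences from -0.18 to 0.23 over all 5 arrays. Stx1a was at 0.03 with cyclic loess, 0.06 with the replicate block and -0.27 to 0.19 over left-out arrays, and Vamp1 at 0.06, 0.16 and -0.36 to 0.22. Cadps2 ranged from -0.07 to 0.29 over left-out arrays, below the presumed control medians on all 5 arrays, so neither sign is read. Over left-out arrays Syt5 ranged from -0.33 to 0.21, Rab3a from -0.49 to 0.13, Rph3a from -0.26 to 0.30, Rims1 from -0.31 to 0.15, Syngr1 from -0.45 to 0.51, Syngr3 from -0.06 to 0.09 and Sncb from -0.37 to 0.65. Replicate numbers 1 and 2 occur in both groups, and their deviations from the group means correlated at 0.13 and -0.202. FLAG-SMN IP replicate 3 and control IP replicate 2 reached 0.42. With 2 control IP arrays the deviations of one mirror those of the other, so these values cannot settle pairing or a shared batch. No pairing is stated, so the main comparison used none. With the replicate block 11 genes were lower at an unadjusted p under 0.05, beside 6.28% of all genes.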
